A study of Arabidopsis thaliana with 12 samples.

Results

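Transcript levels of uvr8 seedlings under UV-B were set beside those of wild-type Col-0 seedlings in white light, so that genotype and light differed together. UVR8 is the UV-B photoreceptor of Arabidopsis thaliana, and uvr8 carries a mutation in its gene. A gene was kept when 3 or more of the 6 libraries compared held 1 TPM or more of it, which gave 19204 of the 32833 loci. TPM is a transcript level corrected for transcript length and scaled to a fixed total in each library. No reading below separates what UV-B did from what the mutation did, because uvr8 in white light was not analysed here.

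RNA was sequenced from whole seedlings, 10 days old, raised with 16 h of light and 8 h of dark a day. The Col-0 reference group stayed in white light, and the uvr8 group had UV-B added to the white light at a fluence rate of 5 µmol m-2 s-1, both for 3 h and without abscisic acid (ABA). Col-0 under the same UV-B is given beside single genes, and Col-0 with 50 µM ABA in white light entered the fit for its spread. Each group held 3 biological replicates, which per the labels were raised and prepared separately from germination on. The labels name neither the uvr8 allele nor the source of UV-B.

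UVR8 absorbs UV-B, binds the ubiquitin ligase COP1 and thereby lets HY5 and HYH, a pair of related transcription factors, switch on genes for flavonoid sunscreens, photolyases and repressors of the pathway itself. UV-B also acts without a photoreceptor: it damages DNA, forms reactive oxygen species and disturbs mitochondria and chloroplasts. Plants answer such damage with DNA repair genes, with enzymes that attach glutathione or glucose to reactive compounds, and with signals shared with wounding and pathogen attack.

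Spearman correlations over genes were 0.9775 to 0.9888 between libraries of a group and 0.969 to 0.9815 between libraries of the 2 groups. Ribosomal RNA genes held 10383.58 to 11725.49 TPM in the 3 uvr8 libraries and 20515.6 to 28564.27 TPM in white light, ranges that do not overlap. Their part in the results was not tested, but with these genes, organelle genes and genes under 300 bp left out the calls came to 761 higher and 336 lower. Depth is unknown, because TPM keeps no read number. Green leaf, guard cell and root markers gave no member past the test among 5, 5 and 3 tested. The summed level of the 5 green leaf markers was 16623.23 to 19936.35 TPM in white light and 15799.39 to 16325.73 TPM in uvr8, and that of the 5 guard cell markers 63.19 to 67.36 and 61.49 to 72.5 TPM. The 9 root markers summed to 27.55 to 31.17 and 23.43 to 29.48 TPM, and the 4 seed storage markers to no more than 1.1 TPM. In whole seedlings, fewer cells of a type and less RNA per cell cannot be told apart.

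UVR8 (AT5G63860, chr5:25554416-25559499, minus strand, TAIR10.1) was examined first. It held 105.55, 107.19 and 107.46 TPM in white light and 20.78, 23.61 and 21.09 TPM in uvr8, while Col-0 under UV-B held 66.88, 73.77 and 71.07 TPM. Every uvr8 library lay below every Col-0 library, and a transcript of the locus was still measured. The difference from white light was -2.24 ± 0.07 (SE) on the log2(TPM + 1) scale (limma, adjusted p = 4.32e-09).

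A total of 1063 genes (5.54%) were called. In uvr8 under UV-B 804 genes (4.19%) stood higher than in Col-0 white light and 259 (1.35%) lower, by limma on log2(TPM + 1) with Benjamini-Hochberg adjustment over 19204 genes at 0.05. At least 2-fold differences (1 log2 unit) numbered 177 higher (0.922%) and 13 lower (0.0677%). The middle of the distribution hardly moved, with a median log2 difference of 0.04. After TMM-style scaling, which sets the middle of each library to the same level, 688 genes were called higher (3.58%) and 426 lower (2.22%). The calls with and without this scaling had 636 higher and 248 lower genes in common. Ranges of the 2 groups did not overlap for 3451 genes that stood higher (18.0%) and 1779 that stood lower (9.26%). With 1 library left out the 1063 calls became 610, 575 and 816 without uvr8 replicates 1, 2 and 3. They became 435, 634 and 678 without white-light replicates 1, 2 and 3. Of the 177 genes at least 2-fold higher 141 stayed called without each library in turn, and of the 13 lower ones 10 did.

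**Figure D1:**
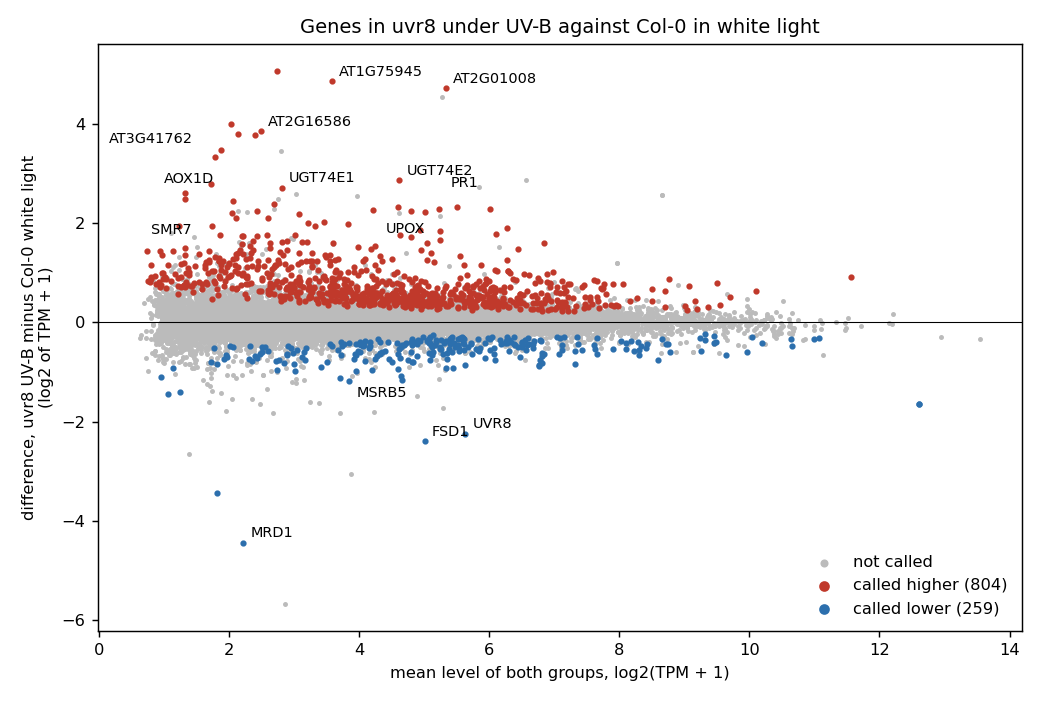
Difference of uvr8 under UV-B from white-light Col-0 (vertical axis, log2 of TPM + 1, 3 libraries a group) against the mean level of both groups (horizontal axis, log2 of TPM + 1), 1 point per gene; red points are the 804 genes called higher, blue points the 259 called lower, grey points the rest. Large differences lie mostly upward, and UVR8, FSD1 and MRD1 stand out at the lower edge.

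Col-0 under UV-B gives the scale for these numbers. In the same fit 7914 genes (41.2%) differed between the Col-0 groups, 2325 (12.1%) higher under UV-B and 5589 (29.1%) lower, with 686 (3.57%) and 524 (2.73%) at least 2-fold. Between the genotypes under UV-B 8658 (45.1%) differed, 6567 (34.2%) higher in uvr8 and 2091 (10.9%) lower, with 803 (4.18%) and 603 (3.14%) at least 2-fold. Both splits move towards even numbers after TMM-style scaling, to 3614 against 3511 and 3795 against 3603. These comparisons share libraries with each other and with the main one, so they are used below only as values beside each gene.

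Most genes of the UVR8 pathway and flavonoid lists were not called in uvr8 against white light. Of 14 tested members of the UVR8 pathway list 2 (14.3%) were higher, HYH and SIG5, and 1 (7.14%) lower, UVR8 itself. The shares over all genes were 4.19% and 1.35%. The median log2 difference was 0.17 against 0.04 over all genes. Of 19 tested flavonoid and sinapate genes none was higher and 1 (5.26%) was lower. Their median was -0.19 with only 2 members above 0, so the list leaned to lower values. FAH1, a hydroxylase of sinapate synthesis, was the lower one, and after TMM-style scaling 2 were lower. A missed threshold does not show equal levels. CHS, the chalcone synthase that opens flavonoid synthesis, held 31.13, 34.27 and 28.36 TPM in white light and 34.52, 28.97 and 19.24 TPM in uvr8, against 2633.33, 2080.04 and 2076.63 TPM in Col-0 under UV-B. Its white-light and uvr8 ranges overlap, and both lie far below Col-0 under UV-B. RUP2, a repressor of UVR8, gave 2.81, 3.62 and 2.93 TPM, then 3.64, 1.97 and 2.96 TPM, against 116.56, 128.9 and 115.28 TPM for UV-B-treated Col-0, which is the same arrangement. The photolyase gene PHR1, whose product repairs UV-induced pyrimidine dimers, had a mean of 1.69 TPM in white light, 2.01 TPM in uvr8 and 25.32 TPM in Col-0 under UV-B.

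HYH is where the mutant departed from white light within this pathway. It held 17.31, 20.1 and 30.01 TPM in white light, 47.28, 47.24 and 63.04 TPM in uvr8, and Col-0 under UV-B 324.79, 284.23 and 296.93 TPM. The 3 groups do not overlap, and uvr8 lies between the other two. HYH was higher than in white light by 1.21 ± 0.19 log2 units (limma, adjusted p = 0.00366) and differed from Col-0 under UV-B by -2.51 (adjusted p = 8.81e-07). HY5, its relative, had 0, 0.16 and 0 TPM without UV-B, 0, 0.64 and 4.08 TPM in the mutant, and failed the filter on low values, while Col-0 under UV-B held 83.35, 101.31 and 92.59 TPM. SIG5, a sigma factor of chloroplast transcription, was higher by 0.46 ± 0.09 log2 units, from a mean of 1.85 to 2.93 TPM, against 192.77 TPM in Col-0 under UV-B, and its call was lost when only the 2 groups compared entered the fit.

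Among the lists, that of detoxification enzymes had the largest share called higher in uvr8 under UV-B. List members were chosen with earlier results of these data known, so this rank depends on that choice. The wider set of glutathione transferases by gene name, given below, had a lower share. Of 21 glutathione transferases and related enzymes 17 (81.0%) stood higher and none lower, against 4.19% and 1.35% of all genes. The median log2 difference was 0.8 against 0.04 over all genes. The higher count was 16 after TMM-style scaling and 13 to 15 with 1 library left out. GSTU25, a tau-class glutathione transferase, held 1.79, 1.66 and 2.29 TPM in white light and 10.09, 10.58 and 14.16 TPM in uvr8. Col-0 under UV-B, with 7.55, 6.22 and 3.28 TPM, lay between them, and none of the 3 groups overlap. GSTU25 was higher than in white light by 2.11 ± 0.23 log2 units (limma, adjusted p = 0.000339) and than in Col-0 under UV-B by 0.96 (adjusted p = 0.00531). Its neighbour by number, GSTU24, behaved otherwise in Col-0: it held 17.29, 21.41 and 22.23 TPM in white light, 24.93, 16.06 and 16.3 TPM in Col-0 under UV-B and 64.44, 60.99 and 72.37 TPM in uvr8. Only the uvr8 libraries stand apart there, by 1.66 ± 0.19 log2 units from white light (adjusted p = 0.000499) and 1.76 from Col-0 under UV-B (adjusted p = 1.7e-05).

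Abundant members were among them. GSTU19, among the most abundant glutathione transferase transcripts of the list, held 539.37, 560.68 and 548.14 TPM in white light and 912.62, 873.33 and 1103.82 TPM in uvr8, without overlap, a difference of 0.8 ± 0.09 log2 units (limma, adjusted p = 0.000499). CYP81D8, a cytochrome P450 often used as a marker of the response to reactive chemicals, held 13.18, 15.46 and 16.95 TPM in white light, 51.4, 62.42 and 58.28 TPM in uvr8 and 21.18, 19.7 and 19.61 TPM in Col-0 under UV-B. The uvr8 libraries were the highest of the 3 groups, 1.85 ± 0.14 log2 units above white light (adjusted p = 1.36e-05). UGT73B4, a glucosyltransferase, had a mean of 6.11 TPM in white light and 27.18 TPM in uvr8, and OPR1, an oxophytodienoate reductase relative, of 87.98 and 178.94 TPM. UGT73B4 shares 255 bp of exon with UGT73B5, and OPR1 shares 216 bp with OPR2, each on the same strand. The 4 members that missed the threshold were GSTU10, GSTU22, GSTF6 and MRP2, with log2 differences of 0.69, 0.53, 0.46 and 0.12.

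Families gathered by gene name after these values were seen gave the wider picture, beside shares of 4.19% higher and 1.35% lower over all genes. Of 31 tested tau and phi glutathione transferases 14 (45.2%) stood higher and 1, GSTF11, lower, from 13.86 to 7.61 TPM. With 1 library left out 11 to 13 were higher, and the lower call was lost without any 1 of the 6 libraries. Of 73 tested UGT glycosyltransferases 24 (32.9%) were higher and 1, UGT85A2, lower. That lower count was 0 without any 1 of the 6 libraries and 3 after TMM-style scaling. The higher count of the UGT genes was 18 to 22 with 1 library left out and 22 after TMM-style scaling. The pair of neighbouring genes UGT74E1 and UGT74E2 on chromosome 1 led them. UGT74E2, an auxin-precursor glucosyltransferase known to respond to reactive oxygen, held 7.32, 7.77 and 9.25 TPM in white light, 27.52, 19.61 and 18.03 TPM in Col-0 under UV-B and 61.78, 76.58 and 57.85 TPM in uvr8. All 3 groups are separate with uvr8 the highest, 2.86 ± 0.16 log2 units above white light (limma, adjusted p = 9.81e-07), an 8.06-fold ratio of mean TPM. UGT74E1 held 1.38, 1.44 and 2.42 TPM, then 15.44, 20.39 and 14.95 TPM in uvr8, with Col-0 under UV-B at 5.9, 4.83 and 6.86 TPM in between. UGT73C5 and UGT73C6, close relatives named after their values were seen, differed from this pattern. UGT73C5 had a mean of 14.34 TPM in white light, 49.51 in uvr8 and 78.33 for UV-B-treated Col-0, while UGT73C6 had means of 7.64, 39.25 and 41.14 TPM. UGT73C6 shares 1677 bp of exon with a gene on the opposite strand, so its level is uncertain.

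**Figure D2:**
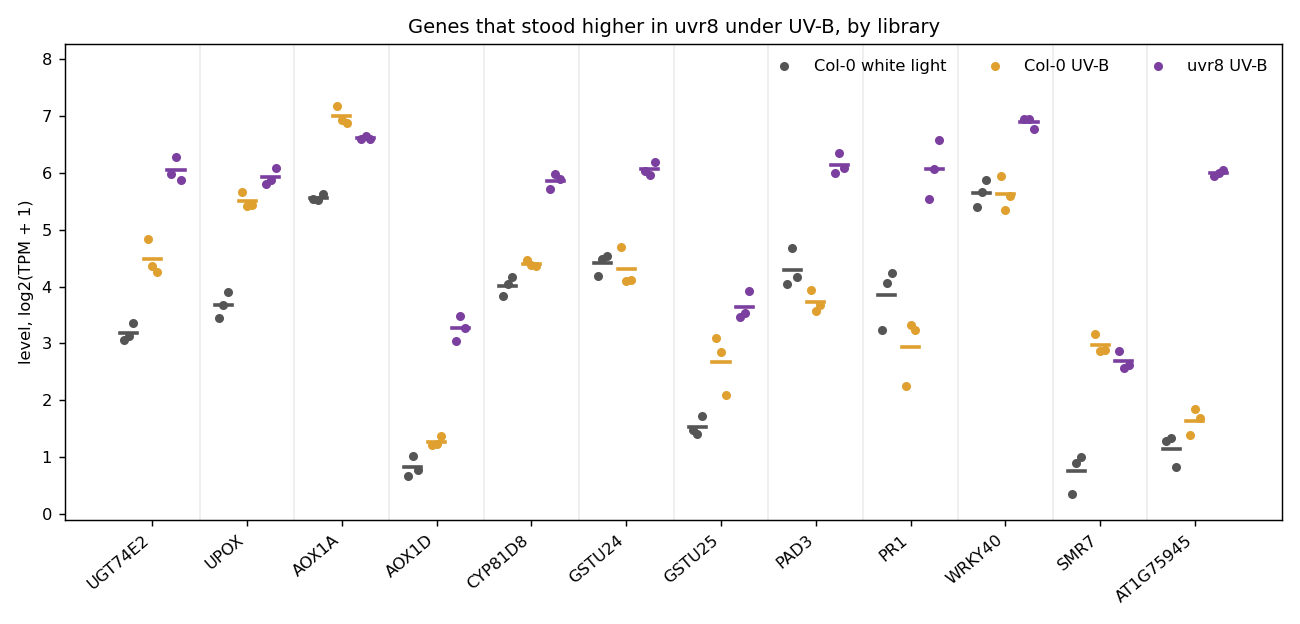
Level in each library (vertical axis, log2 of TPM + 1) of 12 genes called higher in uvr8 under UV-B than in Col-0 white light; points are single libraries, 3 per group, coloured by group, and bars are group means. UPOX, AOX1A and SMR7 are also high in Col-0 under UV-B, while GSTU24, PAD3, PR1, WRKY40 and AT1G75945 stand apart in uvr8.

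Of 16 tested genes that report on mitochondrial and oxidative stress 10 (62.5%) stood higher and 1 (6.25%) lower, against 4.19% and 1.35% of all genes. The median was 0.41, against 0.04 over all genes. After TMM-style scaling 7 were higher and 1 lower, and with 1 library left out 7 to 9 were higher. UPOX, a mitochondrial protein gene induced by oxidative stress, held 9.87, 11.72 and 14.02 TPM in white light, 54.51, 57.6 and 67.03 TPM in uvr8 and 49.91, 41.8 and 42.24 TPM in Col-0 under UV-B. Both UV-B groups lie well above white light, and uvr8 was higher by 2.25 ± 0.16 log2 units (limma, adjusted p = 8.98e-06). AOX1A, the main alternative oxidase of the respiratory chain, held 45.27, 44.71 and 48.47 TPM, 95.11, 99.46 and 95.15 TPM in uvr8, and 143.12, 121.18 and 116.56 TPM in Col-0 under UV-B. Here uvr8 lies between the Col-0 groups, 1.05 ± 0.08 log2 units above white light (adjusted p = 1.68e-05) and 0.39 below Col-0 under UV-B (difference -0.39, adjusted p = 0.00191). Its relative AOX1D differed: 0.6, 1.03 and 0.72 TPM in white light, 7.23, 10.17 and 8.66 TPM in uvr8 and 1.33, 1.35 and 1.59 TPM in Col-0 under UV-B, so that uvr8 was far above both.

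NAC013, a membrane-bound transcription factor of the mitochondrial retrograde response, had a mean of 17.71 TPM in white light, 34.67 in uvr8 and 45.93 in Col-0 under UV-B. HSP23.5, a small heat shock protein of mitochondria, had means of 53.7, 110.9 and 120.25 TPM in the same order. NAC017, which acts above NAC013, missed the threshold with a log2 difference of 0.06. BCS1, NDB2, CSD1 and CSD2 were higher by 0.97, 0.45, 0.36 and 0.3 log2 units, and UGT74E2, described above, was the remaining higher member. CSD1 and CSD2 are copper/zinc superoxide dismutases whose calls were lost after TMM-style scaling. They were not the only calls lost there, as the higher count of the list went from 10 to 7. The lower member was FSD1, an iron superoxide dismutase, described with the lower genes below.

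The mitochondrial dysfunction motif was written here as CTTG and CANG with any 5 letters between them, N being any letter. This is a looser form of the element that NAC013 and NAC017 are known to bind. It was searched on both strands in the 250 bases before the annotated start of 18380 nuclear protein-coding genes, together with the SOG1 motif (CTT and AAG with any 7 letters between them), the TGA motif TGACG and the W-box core TTGAC, all chosen after the calls were known. The same letters can match both of the first 2, and the last 2 can overlap. The promoters of 4 genes called higher are shown because they carry the mitochondrial dysfunction motif, written in capitals; they are RefSeq sequence of build TAIR10.1, 5′ to 3′ on the gene's strand.
UPOX (chr2:9254128-9254377, plus strand): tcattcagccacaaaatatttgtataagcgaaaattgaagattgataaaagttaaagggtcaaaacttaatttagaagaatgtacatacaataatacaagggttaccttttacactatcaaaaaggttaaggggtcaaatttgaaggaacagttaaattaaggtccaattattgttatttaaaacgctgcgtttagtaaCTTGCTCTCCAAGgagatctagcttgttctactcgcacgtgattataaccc
UGT74E1 (chr1:1702750-1702999, minus strand): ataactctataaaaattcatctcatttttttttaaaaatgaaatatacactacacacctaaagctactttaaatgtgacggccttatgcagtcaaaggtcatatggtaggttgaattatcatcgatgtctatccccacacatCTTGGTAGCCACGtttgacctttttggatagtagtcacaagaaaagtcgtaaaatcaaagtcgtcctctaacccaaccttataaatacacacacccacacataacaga
HSP23.5 (chr5:20890913-20891162, plus strand): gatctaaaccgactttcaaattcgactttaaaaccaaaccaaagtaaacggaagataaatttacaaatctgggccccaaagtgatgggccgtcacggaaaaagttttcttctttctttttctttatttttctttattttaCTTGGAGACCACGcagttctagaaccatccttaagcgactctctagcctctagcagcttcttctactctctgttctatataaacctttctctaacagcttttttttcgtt
CYP81D8 (chr4:17571744-17571993, minus strand): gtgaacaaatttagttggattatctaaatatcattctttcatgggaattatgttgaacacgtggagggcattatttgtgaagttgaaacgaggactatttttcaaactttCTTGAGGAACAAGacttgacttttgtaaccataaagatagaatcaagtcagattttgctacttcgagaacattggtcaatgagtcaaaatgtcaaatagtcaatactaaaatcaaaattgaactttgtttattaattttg

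The motif was rare, present in 246 of all 18380 windows (1.34%). It occurred in 37 of 780 windows of genes called higher (4.74%), in 23 of 165 of those at least 2-fold higher (13.9%) and in 2 of 253 of genes called lower (0.791%). Within the mitochondrial list 3 of the 10 higher members held it, namely UPOX, HSP23.5 and NDB2, and UGT74E2, AOX1A and AOX1D had no match in this window. The SOG1 motif stood in 8.8% of all windows, 13.3% of higher, 14.5% of 2-fold higher and 4.35% of lower genes. For the TGA motif the shares were 19.3%, 25.6%, 33.9% and 21.7%. The W-box core, the short element that WRKY factors bind, was in 44.7% of all, 54.6% of higher, 69.1% of 2-fold higher and 47.8% of lower windows. These shares are descriptions of letters, and a match is not a shown binding site.

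**Figure D3:**
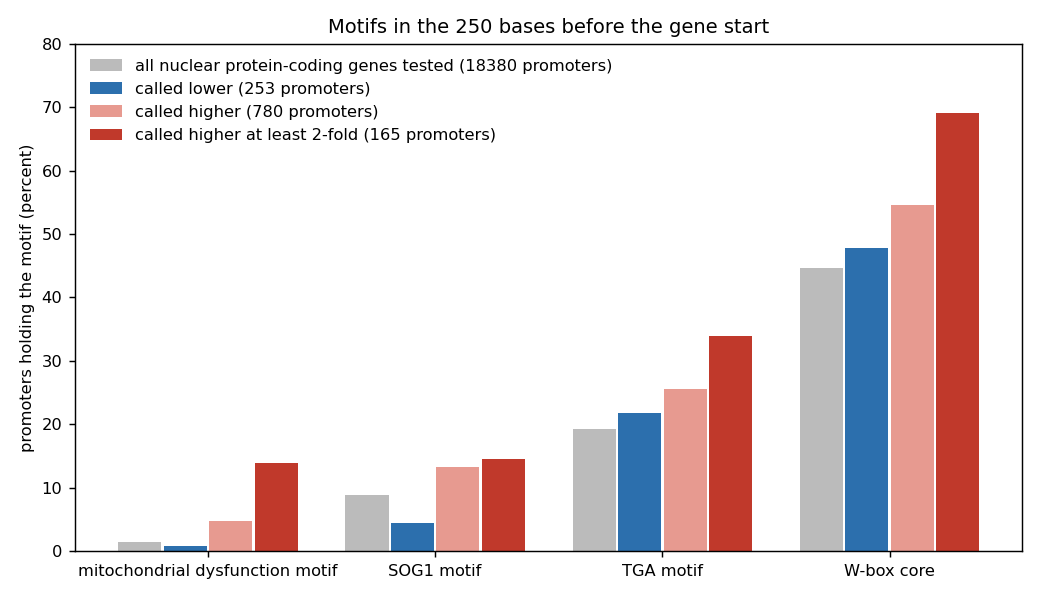
Share of gene starts with each of 4 motifs in the 250 bases before them (vertical axis, percent, from 0), for all 18380 nuclear protein-coding genes tested and for the 253 called lower, 780 called higher and 165 called at least 2-fold higher in uvr8 under UV-B. The bars of the 2-fold higher genes are the tallest in each motif, with 13.9% against 1.34% for the mitochondrial dysfunction motif.

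Of 22 members of the salicylate and pathogen defence list 10 (45.5%, against 4.19% of all genes) stood higher in uvr8 under UV-B. None stood lower, against 1.35% of all genes, and 12 were not called. The median log2 difference was 0.6, against 0.04 over all genes, and 10 were higher after TMM-style scaling. The count was 6 without uvr8 replicate 2 and 6 without white-light replicate 1. PR1, the classical salicylate-induced pathogenesis-related gene, held 8.41, 15.69 and 17.91 TPM in white light, 45.75, 65.6 and 94.22 TPM in uvr8 and 3.79, 9.0 and 8.43 TPM in Col-0 under UV-B. Every uvr8 library lies above every other, by 2.21 ± 0.33 log2 units from white light (limma, adjusted p = 0.00269) and 3.12 from Col-0 under UV-B (adjusted p = 1.39e-05). PAD3, the last enzyme of camalexin synthesis, gave 15.58, 24.51 and 17.03 TPM, then 62.86, 80.1 and 66.8 TPM in uvr8, with 14.4, 10.84 and 11.79 TPM in Col-0 under UV-B. The earlier camalexin genes CYP71A13 and CYP71A12 stood higher as well, by 1.61 ± 0.22 and 0.96 log2 units. ALD1 and FMO1, which make the immune signal N-hydroxypipecolate, were higher by 1.26 and 1.14 log2 units. Among genes of salicylate synthesis, transport and reception, ICS1, EDS5 and NPR1 missed the threshold at 0.25, 0.26 and 0.17.

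Early wound and reactive-oxygen genes were raised in part. Of 21 tested 9 (42.9%) were higher and none lower, against 4.19% and 1.35% of all genes. The median was 0.42, against 0.04 over all genes. The higher count was 7 after TMM-style scaling and 6 to 8 with 1 library left out. OXI1, a protein kinase activated by hydrogen peroxide, held 1.99, 1.33 and 1.3 TPM in white light, 7.31, 7.35 and 7.61 TPM in uvr8 and 10.76, 10.66 and 9.25 TPM in Col-0 under UV-B. Both UV-B groups stand above white light, uvr8 by 1.74 ± 0.14 log2 units (limma, adjusted p = 3.31e-05). ZAT12, a zinc-finger regulator of oxidative stress, lay likewise between the Col-0 groups with means of 9.07, 17.59 and 33.47 TPM in white light, uvr8 and Col-0 under UV-B. WRKY40 did not: it held 41.05, 49.66 and 57.36 TPM in white light, 60.77, 39.85 and 47.5 TPM in Col-0 under UV-B and 122.86, 122.56 and 107.83 TPM in uvr8. WRKY33 and ERF6, regulators of camalexin and wound responses, were higher by 1.03 and 1.18 log2 units, and the touch genes TCH2 and TCH4 missed the threshold at -0.2 and -0.11.

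Among all 50 tested WRKY genes, counted by name after the values were seen, 10 (20%) stood higher and none lower. The shares over all genes were 4.19% and 1.35%. The higher count was 6, 4 and 5 without uvr8 replicates 1, 2 and 3, and 5 without white-light replicate 1 or 2. WRKY75 stood far above both Col-0 groups, with 1.49, 4.36 and 3.34 TPM in white light, 1.51, 0.98 and 1.64 TPM in Col-0 under UV-B and 13.51, 17.45 and 19 TPM in uvr8. Of 12 MAP kinase cascade genes 2 (16.7%, against 4.19% of all genes) stood higher, MPK11 and MKK9, by 1.23 ± 0.16 and 0.52 ± 0.09 log2 units. MPK3, MPK6 and the phosphatase MKP1, central to UV-B stress signalling, missed the threshold at 0.4, 0.08 and -0.01.

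DNA damage genes were higher in uvr8 under UV-B for 5 of 17 tested members (29.4%, against 4.19% of all genes). None was lower, against 1.35% of all genes, and the median was 0.23. After TMM-style scaling 5 were higher and 1 lower, and leaving out single libraries gave 4 or 5 higher. SMR7, an inhibitor of the cell cycle under the DNA damage regulator SOG1, held 0.28, 0.87 and 1.01 TPM in white light, 6.29, 4.94 and 5.16 TPM in uvr8 and 7.94, 6.33 and 6.37 TPM in Col-0 under UV-B. Both UV-B groups lie above white light, uvr8 by 1.93 ± 0.18 log2 units (limma, adjusted p = 7.84e-05), and the difference of uvr8 from Col-0 under UV-B was -0.29 (adjusted p = 0.212). BRCA1, a gene of recombination repair, had means of 2.2, 6.88 and 5.12 TPM in white light, uvr8 and Col-0 under UV-B. TSO2, a ribonucleotide reductase subunit, and XRI1, a repair gene, were higher by 0.79 and 0.5, the latter losing its call without any one of 5 of the 6 libraries. Cell division genes gave no call among 9 tested.

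**Figure D4:**
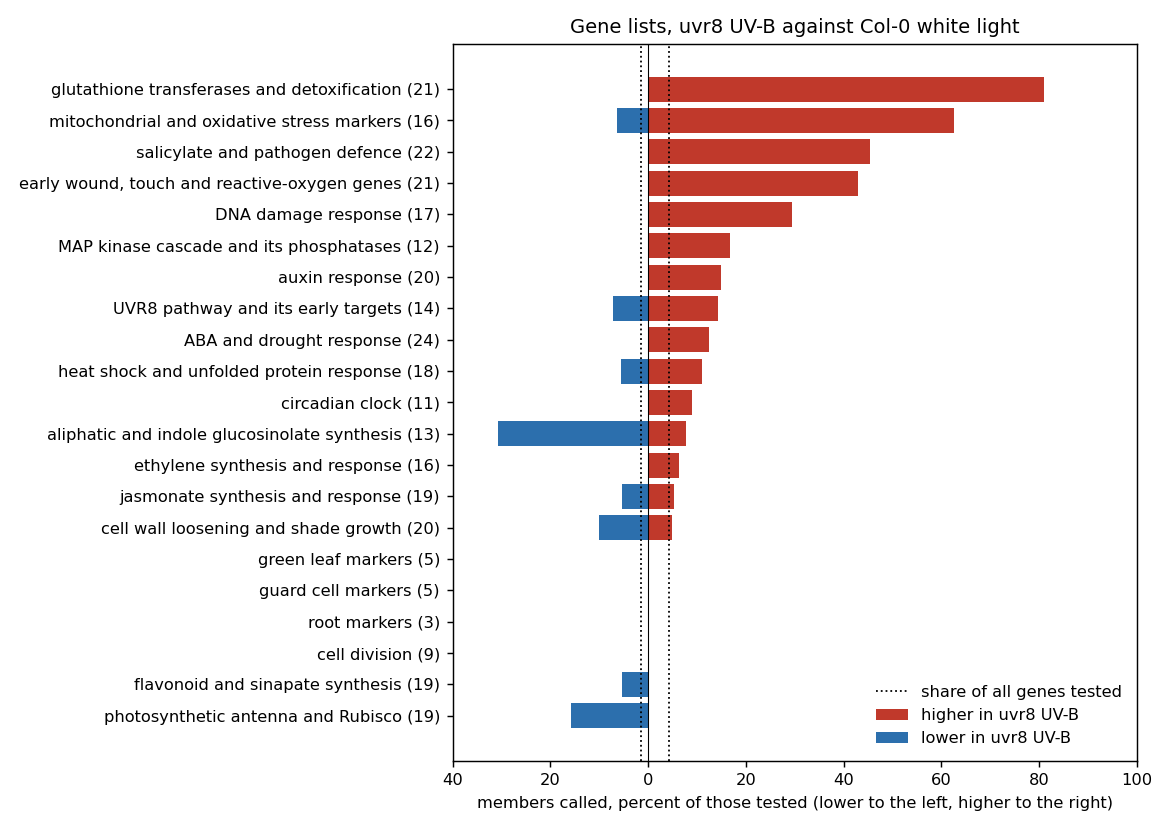
Share of tested members of each gene list (number tested in brackets) called higher (red, to the right) or lower (blue, to the left) in uvr8 under UV-B against Col-0 white light, in percent from 0; dotted lines mark the shares over all genes, 4.19% and 1.35%. Detoxification (81.0%) and mitochondrial stress genes (62.5%) are at the top, and glucosinolate synthesis has the longest bar to the left (30.8%).

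The remaining hormone and stress lists held few calls, beside shares of 4.19% higher and 1.35% lower over all genes. Of 20 tested auxin response genes 3 (15%) were higher (IAA29, GH3.2 and GH3.3, by 0.77, 0.78 and 0.87 log2 units) and none lower. That count was 1 without uvr8 replicate 2 and 1 without white-light replicate 1. GH3.3, an enzyme that conjugates auxin, held 39.38, 45.51 and 49.36 TPM in white light, 83.56, 92.06 and 71.82 TPM in uvr8 and 6.41, 6.76 and 9.68 TPM in Col-0 under UV-B. The mutant is the highest group and Col-0 under UV-B the lowest, though the call of GH3.3 was lost without uvr8 replicate 1 or 2 or white-light replicate 1 or 2. In the growth list of 20 genes EXPA10, an expansin, was higher (0.62), which is 5% of the list. PIF4, a growth-promoting light-signalling factor, and XTH4, a wall enzyme, were lower (-0.49 and -0.4), which is 10%. PIF4 held 44.21, 45.73 and 41.51 TPM in white light, 30.12, 30.12 and 32.34 TPM in uvr8 and 14.24, 13.58 and 13.14 TPM in Col-0 under UV-B, 3 groups without overlap. The lower count of the growth list was 1 without each library in turn. Of 24 ABA and drought genes LTI30, ABI2 and HAB1 (12.5%) were higher, by 0.78, 0.45 and 0.57. RD29A, RAB18 and NCED3 missed the threshold at -0.1, -0.12 and -0.03. The higher count of this list was 1 without uvr8 replicate 1, uvr8 replicate 2 or white-light replicate 3.

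Jasmonate genes gave 1 higher and 1 lower call of 19 (5.26% each), against 4.19% and 1.35% of all genes. The higher gene was PDF1.2, a defensin gene, at 2.2 ± 0.44 log2 units. The lower was AOS, which opens jasmonate synthesis, at -0.58 ± 0.12. The call of PDF1.2 was lost without white-light replicate 2 (adjusted p = 0.0532), and that of AOS without uvr8 replicate 2 or white-light replicate 1. Of 16 ethylene genes ACS6, a synthase of the ethylene precursor, was the only one called (6.25%), higher by 0.82 ± 0.09 (limma, adjusted p = 0.000229). Among 18 tested heat shock and unfolded protein genes BZIP60 and HSFB2A (11.1%) were higher by 0.6 and 0.44 (1 gene higher without each library in turn). HSP70-4 (5.56%) was lower (difference -0.56), its call lost without white-light replicate 1 or 3. In the clock list of 11 tested genes ELF4 (9.09%), of the evening complex, was higher by 0.47. Its means were 97.57, 135.78 and 465.58 TPM in white light, uvr8 and Col-0 under UV-B. No clock gene was called after TMM-style scaling or without white-light replicate 2.

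Fewer genes stood lower, and 2 of the largest lower differences besides UVR8 were in FSD1 and MRD1. FSD1 (AT4G25100, chr4:12884300-12887011, minus strand), an iron superoxide dismutase found in chloroplasts, held 81.94, 59.88 and 76.8 TPM in white light, 13.89, 12.75 and 12.27 TPM in uvr8 and 34.6, 35.66 and 46.21 TPM in Col-0 under UV-B. Each group is separate, uvr8 the lowest, at -2.39 ± 0.14 log2 units from white light (limma, adjusted p = 1.54e-06) and -1.5 from Col-0 under UV-B (adjusted p = 4.56e-06). MRD1 (AT1G53480) was listed at 0 in all 3 uvr8 libraries and held 18.34, 21.94 and 21.83 TPM in white light and 11.09, 12.47 and 17.01 TPM in Col-0 under UV-B. MRD1 shares 924 bp of identical sequence with its neighbour AT1G53490 and 1039 bp of exon with a gene on the opposite strand, so the division of reads among these is uncertain.

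Of 8 genes named LSU, SDI or GGCT2, gathered after their values were seen for their known response to sulphur supply, 3 (37.5%) stood lower, against 1.35% of all genes, and 5 were not called. GGCT2;1, a glutathione-degrading cyclotransferase, held 12.58, 8.66 and 9.92 TPM in white light, 4.81, 4.65 and 4.67 TPM in uvr8 and 13.55, 13.87 and 12.87 TPM in Col-0 under UV-B. LSU2, a low-sulphur marker, held 23.22, 22.59 and 27.96, then 9.87, 11.47 and 15.39, then 27.28, 36.29 and 30.74 TPM in the same order. SDI1, a repressor of glucosinolate synthesis under sulphur shortage named after its values were seen, had means of 2.82, 0.46 and 2.1 TPM. All 3 put uvr8 below every Col-0 library, at -0.98, -0.97 and -1.39 log2 units from white light, and they were the 3 genes called. MSRB5, a methionine sulfoxide reductase, went the same way, with 22.22, 18.19 and 21.05 TPM in white light, 11.58, 6.16 and 8.31 TPM in uvr8 and 33.48, 39.87 and 26.27 TPM in Col-0 under UV-B.

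Glucosinolates are sulphur-rich defence compounds. Of 13 genes of their synthesis 4 (30.8%, against 1.35% of all genes) stood lower, MAM1, CYP79F1, CYP83A1 and SOT18. MYB51, a regulator of the indole branch, stood higher (7.69%, against 4.19% of all genes). The other 8 were not called, and the median of the list was -0.29. MAM1, which elongates methionine for the aliphatic branch, held 153.98, 136.82 and 144.35 TPM in white light, 94.78, 80.85 and 62.99 TPM in uvr8 and 85.8, 89.74 and 81.19 TPM in Col-0 under UV-B. Its level was lower than in white light in both UV-B groups, in uvr8 at -0.88 ± 0.18 log2 units (limma, adjusted p = 0.0145), with a difference of -0.12 (adjusted p = 0.61) between the UV-B groups. The call of MAM1 was lost without white-light replicate 1, and that of MYB51 without that library or uvr8 replicate 1 or 2. FMOGS-OX3, a side-chain oxygenase of the same compounds, was lower at -0.94, and BCAT4, IPMI1 and FMOGS-OX1, named after seeing their values, at -0.91, -0.93 and -0.79. The lower count of the list was 6 after TMM-style scaling, 0 without white-light replicate 1, 1 without uvr8 replicate 2, and 2 without uvr8 replicate 3 or either of white-light replicates 2 and 3.

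**Figure D5:**
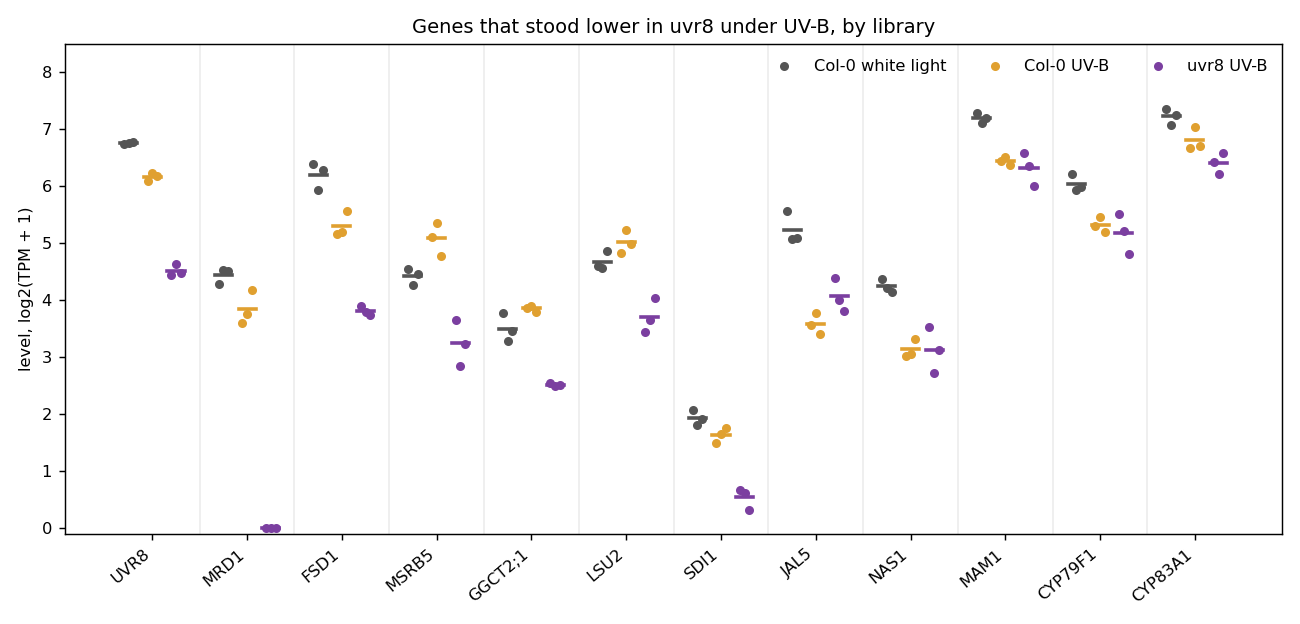
Level in each library (vertical axis, log2 of TPM + 1) of 12 genes called lower in uvr8 under UV-B than in Col-0 white light; points are single libraries, 3 per group, coloured by group, and bars are group means. MSRB5, GGCT2;1 and LSU2 are low in uvr8 only, while JAL5, NAS1, MAM1 and CYP79F1 are low in both UV-B groups, and MRD1 is listed at 0 in uvr8.

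Light-harvesting genes tended to lower values without many calls. Of 19 antenna and Rubisco genes 3 (15.8%, against 1.35% of all genes) were lower, LHCB2.2, LHCB4.2 and LHCA4, at -0.76, -0.58 and -0.42. The median of the list was -0.31, with 4 members above 0. After TMM-style scaling 1 was lower. The count was 0 without uvr8 replicate 2 or white-light replicate 1 or 2, and 1 without any other library. The Rubisco small subunit gene RBCS1A had means of 4480.73 TPM in white light and 5029.03 TPM in uvr8 and was not called. NAS1, a nicotianamine synthase of metal transport, and JAL5, a jacalin-like lectin gene, were lower in both UV-B groups, in uvr8 at -1.12 ± 0.2 and -1.17 ± 0.18 log2 units.

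The largest difference of any protein-coding gene named by rank was that of AT1G75945 (chr1:28515245-28515916, minus strand), which the annotation leaves without a described function. It held 1.44, 1.52 and 0.77 TPM in white light, 60.87, 63.08 and 64.97 TPM in uvr8 and 1.61, 2.62 and 2.22 TPM in Col-0 under UV-B. The Col-0 libraries are all low, with and without UV-B, and the uvr8 libraries all high, by 4.85 ± 0.17 log2 units from white light (limma, adjusted p = 1.23e-08) and 4.36 from Col-0 under UV-B (adjusted p = 1.97e-09). No copy or overlapping exon was found for it. AT2G01008 came next, with 7.21, 5.59 and 7.77 TPM in white light, 187.83, 195.42 and 231.58 TPM in uvr8 and 149.17, 175.76 and 140.9 TPM in Col-0 under UV-B. AT2G01008 and AT3G41762 share 468 bp at 98.504% identity and lie 533 and 812 bp from ribosomal RNA genes, and AT2G16586 shares 259 bp at 99.228% with AT3G06345, so the levels of these 3 are uncertain. AT3G41762 had 0, 0 and 0.3 TPM in the white-light libraries, whereas the mutant had 9.51, 10.32 and 13.61 TPM.

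Other genes at the top of the ranking were low or absent in white light. AT2G23270 was listed at 0 in all white-light libraries and held 3.52, 7.23 and 5.0 TPM in uvr8 and 0.74, 1.88 and 0.61 TPM in Col-0 under UV-B. AT5G43064 and AT4G36795 were also listed at 0 in white light, with 17.49, 3.24 and 11.85 TPM and 9.3, 2.87 and 3.48 TPM in uvr8. Both share exon with an overlapping gene, and the call of AT5G43064 was lost in 5 alternatives, without either uvr8 replicate 1 or 3 or any 1 white-light library. AT1G12830, with 0.81, 0 and 0 TPM in white light, 8.64, 8.13 and 5.77 TPM in uvr8 and 17.89, 9.61 and 17.37 TPM in Col-0 under UV-B, shares 999 bp of exon with a gene on the other strand. Reads of such pairs cannot be told apart where counting ignored strand, and the sources name no strand setting. GSTU9, a glutathione transferase, had 1.22, 1.77 and 2.54 TPM in white light and 12.24, 14.06 and 14.32 TPM in uvr8, 2.38 ± 0.21 log2 units apart (limma, adjusted p = 5.77e-05).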

How the data were processed

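Per the labels' protocols, total RNA went into TruSeq libraries that an Illumina HiSeq read from both ends. The deposited tables hold 1 TPM value per locus and library, a unit read from the values themselves, which sum to between 998197.5 and 998680.8 per library. The submitters' processing notes name build TAIR10; for aligner, counter and strand setting the sources used here give nothing. TPM keeps no depth, so no counting interval can be given, and for 259 genes 1 library read 0 while a replicate of its group exceeded 5 TPM.

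Groups came from the sample titles and genotype labels. The uvr8 treatment label names both lights, so the title decided. No 2 of the 12 libraries (66 pairs) were identical.

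log2(TPM + 1) was fitted with limma 3.58.1 (R 4.3.3) with a mean-variance trend, as 4 group means over all 12 libraries, and p-values were adjusted over the 19204 genes at 0.05. ± after a log2 difference is its SE. The scale understates the change of low genes. On simulated data 100 genes were given a difference of 1 log2 unit and 100 genes 1 of 2 units. The fit recovered 92% and 97% of these, and called 14 unchanged genes, with 19204 genes in the fit. Whether these shares hold for genes of low level was not tested.

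The members and the 22 lists (352 genes, 321 tested) were chosen with earlier results of these data known. Named genes are UVR8, the 12 highest and 12 lowest differences (nuclear, protein-coding, called, ranges apart, at least 5 TPM), the 6 furthest each way from both Col-0 groups, and the largest call each way in every list. Families, motifs and a few named genes were chosen after the values were seen. Positions are from TAIR10.1, where 32548 loci matched. Exons of named genes were aligned with BLAST+ 2.17.0: among 48 named genes 4 had another locus matching 150 bp or more at 95% or better, and 7 share exon with an overlapping gene.

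Alternatives were TMM-style scaling (30% of ratios and 5% of levels trimmed), a pseudocount of 0.1, a replicate block, no filter, no trend, a fit of only the 2 groups, at least 1 log2 unit, no ribosomal, organelle or under-300 bp genes, and each library left out. Tables and plots used Python 3.11.15, pandas 2.3.3 and matplotlib 3.10.9. One list member is counted but not reported here by itself.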

Additional observations from a re-analysis of the deposited data

Results flagged for a closer look

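The libraries of Col-0 with ABA in white light entered the comparison only through the shared spread. For 4 selected named genes the mean level there was above that of white light without ABA. These 4 are not a count of all named genes that stood higher with ABA. UGT74E2 had a mean of 36.33 TPM with ABA, beside 8.11 TPM in white light and 65.4 TPM in uvr8 under UV-B. NPF5.12, a transporter gene that was lower in uvr8, had a mean of 19.67 TPM with ABA, beside 8.3 TPM in white light and 3.77 TPM in uvr8. LTI30, a dehydrin gene, had a mean of 1564.84 TPM with ABA, beside 112.52 TPM in white light and 193.69 TPM in uvr8. ELF4 had a mean of 293.03 TPM with ABA, beside 97.57 TPM in white light.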

How the results depend on the processing

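The 1063 calls (804 higher, 259 lower) became 688 higher and 426 lower after TMM-style scaling, and 190 at 1 log2 unit or more, 177 higher and 13 lower. With a pseudocount of 0.1, 20 genes were at least 2-fold lower. Leaving out 1 library gave 435 to 816 calls, 340 to 607 higher and 95 to 209 lower, with 139 to 177 at least 2-fold higher and 11 to 22 lower. With TMM-style scaling uvr8 against Col-0 under UV-B gave 3795 higher and 3603 lower, and the Col-0 groups 3614 higher under UV-B and 3511 lower. At 1 log2 unit these were 1406 (803 and 603) and 1210 (686 and 524). The cause of these moves was not tested, but the 1 log2 unit rule and a missing library leave fewer genes or samples by construction. With the replicate number as a block 677 were higher and 235 lower. Same-numbered libraries had correlations of deviations of -0.03, 0.142 and 0.185. For uvr8 replicate 1 white-light replicate 2 was closer (0.136). For uvr8 replicates 2 and 3 the same-numbered white-light library was the closest. Whether same-numbered libraries share a batch was not tested. Of 622 values of the 48 named genes under an alternative 589 kept direction and call and 33, from 10 genes, lost the call, none reversing. Of 546 list counts 479 stayed within 1.5 times. TPM hides depth, so low genes carry unknown counting error.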

Other observations

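Cytochrome P450 genes, gathered by name after the values were seen, held calls in both directions. Of 117 tested 21 (17.9%) stood higher in uvr8 under UV-B than in Col-0 white light and 8 (6.84%) lower, by limma, against 4.19% and 1.35% over all genes. The higher count was 12 without white-light replicate 1 and 13 without uvr8 replicate 2. The lower count was 3 without either of these libraries and 5 without white-light replicate 2 or 3. The higher genes included CYP71A22, from a mean of 6.67 to 17.13 TPM with 5.78 TPM in Col-0 under UV-B, and CYP710A1, a sterol desaturase gene, from 5.17 to 13.68 TPM with 2.93 TPM in Col-0 under UV-B. The lower genes included 3 of the CYP86A family of cutin and fatty acid hydroxylation, with CYP86A2 at 542.73 TPM in white light, 357.04 in uvr8 and 339.4 in Col-0 under UV-B. CYP90B1 and CYP90C1, of brassinosteroid synthesis, were also lower, from 22.02 to 16.46 TPM and from 6.02 to 3.64 TPM.

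Several genes named after their values were seen were among the called ones of larger level. SOT12, a sulfotransferase gene, held 28.67, 28.15 and 28.07 TPM in white light, 136.52, 150.69 and 139.33 TPM in uvr8 and 75.64, 59.49 and 63.77 TPM in Col-0 under UV-B, 3 groups without overlap. AT4G01870 held 55.24, 75.26 and 65.15 TPM in white light, 194.45, 197.67 and 204.52 TPM in uvr8 and 63.45, 45.74 and 52.54 TPM in Col-0 under UV-B, so that only uvr8 stood apart. DTX4, a transporter gene of the detoxification family, had means that gave a ratio of 7.33 between uvr8 and white light.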
